A study of Mus musculus with 5 samples.

Results

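The complement regulators Cd59a, Cd55, Cr1l and Serping1 and the receptors for the Fc part of IgG, Fcgr1, Fcgr2b, Fcgr3 and Fcgr4, were followed in mouse embryonic stem (ES) cells. They were found by gene name in the processed RNA-seq table and make up 8 of its 24016 genes. The table holds 5 poly-A selected libraries, each from ES cells cultured in 2i medium, which blocks MEK and GSK3. There were 2 libraries of NOD cells (replicates 1 and 5), a strain prone to autoimmune diabetes, and 1 of NZB, a strain prone to autoimmune anaemia. These were set against 1 library of B6 cells (C57BL/6) and 1 labelled v6.5, a line of mixed C57BL/6 and 129 background. Each strain other than NOD thus rests on a single library, and the 2 NOD libraries differ in cell line. The labels do not say whether the cells were cultured together, so the p-values speak only of spread among these libraries. In comparisons between single strains that spread is the one between the 2 NOD libraries alone. The command kept with the table names 2 B6 directories and none for v6.5, and joins the numbers 5 and 6 for the library called NOD replicate 5.

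Complement is a cascade of blood proteases and pore-forming proteins that opsonises and lyses cells. Host cells hold it in check with membrane proteins that take apart the C3 and C5 convertases (Cd55, Cr1l) or block the final pore (Cd59a), and with the secreted inhibitor of C1 (Serping1). Fc gamma receptors are carried mainly by myeloid cells and bind IgG on coated targets. Fcgr1, Fcgr3 and Fcgr4 activate the cell through the common gamma chain, whereas Fcgr2b inhibits it.

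Recovered reads numbered 7713133 and 21387796 in the NOD libraries (replicates 1 and 5) and 9582669 in NZB, against 13431741 in B6 and 8594283 in the library labelled v6.5. Rn45s, the ribosomal RNA precursor, held 41.4% of the B6 reads and between 1.95% and 14.3% of the others, so all levels below were rescaled by TMM factors for composition and are called normalised reads. Without this rescaling the median log2 difference of all genes between NOD and B6 was 0.77, and with it 0.05. The summed level of 8 ES cell markers lay between 25237 and 52006 normalised reads in all 5 libraries, but single markers went both ways. In NOD against B6 limma called 0 of the 8, with 5 at an unadjusted p under 0.05, as were 17.4% of all genes. There edgeR called Zfp42 higher, where 3.41% of all genes were, and Klf4 and Utf1 lower, where 4.7% were. The summed level of 10 fibroblast markers was 201 and 223 normalised reads in NOD replicates 1 and 5, and 8566 in NZB, against 6888 in B6 and 829 in v6.5, and limma called 5 of the 9 tested lower in NOD than in B6 (edgeR 6), beside 0.26% of all genes. The summed level of 8 trophoblast markers was 4995 and 3286 normalised reads in NOD replicates 1 and 5, and 952 in NZB, against 1133 in B6 and 989 in v6.5. Of the NOD sums Krt18 held 3418 and 1180. Limma called 0 of the 6 tested in NOD against B6 (4 at an unadjusted p under 0.05). In NOD against B6 with v6.5 it called 3 of 5 higher (Krt8, Krt18 and Tfap2c) and 1 lower (Eomes), beside 9.28% of all genes. Eomes had 31.8 and 65.7 normalised reads in NOD and 77.7 in NZB, against 478 in B6 and 424 in v6.5. The part of these marker groups in the results that follow was not tested.

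In these ES cells the membrane regulators were the most abundant of the 8 genes, and Fcgr1 and Fcgr4 were at or near 0. Cd59a and Fcgr3 varied most among the libraries, with the highest library 8.85-fold above the lowest for Cd59a and 9.16-fold for Fcgr3. Both genes stood higher in the 2 NOD libraries and in NZB than in B6 and v6.5. Cd55 was the most abundant member and was at nearly the same level in NOD and B6. Divided by transcript length, the mean levels over the 5 libraries were 147 normalised reads per kb for Cd55, 71.0 for Cd59a, 67.2 for Cr1l, 28.7 for Serping1 and 25.4 for Fcgr3. The mean was 4.18 normalised reads per kb for Fcgr2b, 0.463 for Fcgr1 and 0.443 for Fcgr4. Cd59a with Cr1l, and Serping1 with Fcgr3, were thus close in mean level, closer than the spread of any of these genes over the libraries.

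**Figure D1:**
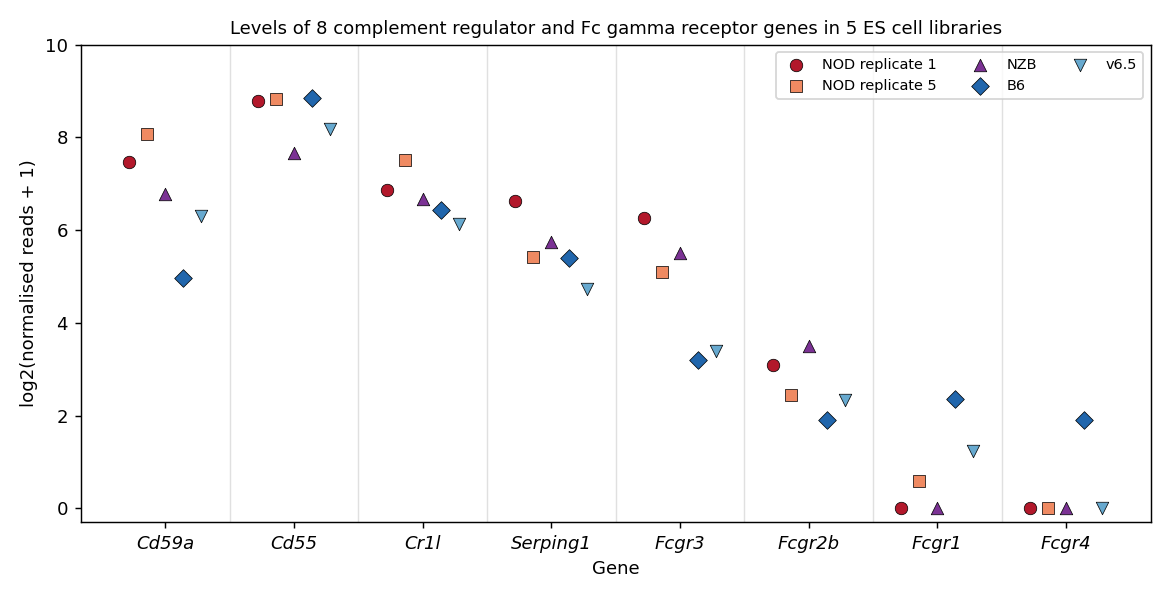
Level of each of the 8 genes in each library, as log2(normalised reads + 1) on the vertical axis, with 1 point per library. Cd59a and Fcgr3 have all NOD and NZB points above the B6 and v6.5 points, Cd55 has its lowest point in NZB, and Fcgr1 and Fcgr4 lie near 0.

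Cd59a (Entrez 12509; mm9 chromosome 2, 103935958 to 103955567, plus strand) encodes a GPI-anchored protein that stops assembly of the membrane attack complex. It had 175 and 268 normalised reads in NOD replicates 1 and 5 (mean 222 ± 65.4, SD, n = 2), and 109 in NZB, against 30.3 in B6 and 78.1 in v6.5. These came from 116 and 538 reads in NOD, and 105 in NZB, against 22 in B6 and 58 in v6.5. No NOD library overlapped another strain, B6 was the lowest, and NZB and v6.5 stood between. Set against B6 and with a 95% exact counting interval, the fold was 5.79 (3.65 to 9.60) and 8.85 (5.78 to 14.2) in NOD replicates 1 and 5, 3.59 (2.25 to 5.98) in NZB and 2.58 (1.56 to 4.43) in v6.5. These intervals cover counting error only, and reads amplified by PCR are not independent molecules. The 2 NOD libraries also differed from each other, replicate 1 having 0.655 times the level of replicate 5 (0.531 to 0.802). In bulk RNA, fewer cells with a transcript and less of it per cell cannot be told apart.

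Cd55 (Entrez 13136; mm9 chromosome 1, 132335607 to 132359317, minus strand) encodes decay-accelerating factor, also GPI-anchored. Its level was 440.1 and 456 normalised reads in NOD replicates 1 and 5 (mean 448 ± 10.95, SD, n = 2), and 203 in NZB, against 459.6 in B6 and 289.6 in v6.5. NOD and B6 libraries were close together, v6.5 was lower and NZB lowest. The NZB level was 0.442 times that of B6 (95% counting interval 0.369 to 0.529) and the v6.5 level 0.630 times (0.528 to 0.750). The NOD libraries matched within counting error, with a ratio of replicate 1 to replicate 5 of 0.966 (0.844 to 1.10).

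Cr1l (Entrez 12946; mm9 chromosome 1, 196929982 to 196957764, minus strand), known as Crry, encodes a rodent membrane protein that combines decay acceleration with cofactor activity for factor I. It had 116 and 182 normalised reads in NOD replicates 1 and 5 (mean 149 ± 46.5, SD, n = 2), and 102 in NZB, against 85.3 in B6 and 68.7 in v6.5. All NOD libraries stood above all others, but the steps from NOD replicate 1 down to v6.5 were small. Against B6 the fold was 1.37 (95% counting interval 0.964 to 1.94) in NOD replicate 1 and 2.14 (1.63 to 2.84) in NOD replicate 5.

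Serping1 (Entrez 12258; mm9 chromosome 2, 84605517 to 84615586, minus strand) encodes the C1 inhibitor, a serpin that also acts on kallikrein and factor XII. Its level was 98.3 and 41.8 normalised reads in NOD replicates 1 and 5 (mean 70.1 ± 39.9, SD, n = 2), and 52.8 in NZB, against 41.3 in B6 and 25.6 in v6.5. Only NOD replicate 1 stood apart, while NOD replicate 5 lay next to B6 and below NZB. NOD replicate 1 had 2.35 times the level of NOD replicate 5 (95% counting interval 1.67 to 3.29), a gap as large as its fold over B6 of 2.38 (1.52 to 3.80). NOD replicate 5 was 1.01 times B6 (0.661 to 1.59).

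Fcgr3 (Entrez 14131; mm9 chromosome 1, 172981300 to 172989534, minus strand) encodes the low-affinity activating receptor of macrophages and NK cells. It had 75.6 and 33.4 normalised reads in NOD replicates 1 and 5 (mean 54.5 ± 29.9, SD, n = 2), and 44.6 in NZB, against 8.25 in B6 and 9.43 in v6.5. The NOD and NZB libraries did not overlap B6 or v6.5, and NZB lay between the NOD libraries. The reads behind these levels were 50 and 67 in NOD, and 43 in NZB, against 6 in B6 and 7 in v6.5. Against B6 the fold was 9.16 (95% counting interval 3.92 to 26.1) and 4.04 (1.76 to 11.4) in NOD replicates 1 and 5, 5.40 (2.29 to 15.5) in NZB and 1.14 (0.329 to 4.11) in v6.5. NOD replicate 1 had 2.27 times the Fcgr3 level of replicate 5 (1.54 to 3.32).

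Fcgr2b (Entrez 14130; mm9 chromosome 1, 172890689 to 172906202, minus strand), the inhibitory receptor, had too few reads to be tested. It had 5 and 9 reads in NOD replicates 1 and 5, and 10 in NZB, against 2 in B6 and 3 in v6.5, or 7.56, 4.48, 10.4, 2.76 and 4.04 normalised reads in the same order. As for Fcgr3, NOD and NZB lay above B6 and v6.5, but the fold of NOD replicate 1 over B6, 2.75, had a 95% counting interval of 0.450 to 28.9, and that of NZB over B6, 3.77, one of 0.802 to 35.3. No difference in Fcgr2b was detectable at this depth. Fcgr1 (Entrez 14129; mm9 chromosome 3, 96086832 to 96097892, minus strand), the high-affinity receptor, had 0 and 1 reads in NOD replicates 1 and 5, and 0 in NZB, against 3 in B6 and 1 in v6.5. Fcgr4 (Entrez 246256; mm9 chromosome 1, 172949057 to 172959892, plus strand), a receptor for IgG2 subclasses, had 2 reads in B6 and 0 in each other library. A count of 0 allows up to 3 reads, which is 4.54 and 1.49 normalised reads in the NOD libraries and 3.11 in NZB, against 4.04 in v6.5.

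Markers of the leukocytes that normally carry these receptors did not share one pattern. The common gamma chain Fcer1g, through which Fcgr3 signals, had 1.51 and 1.99 normalised reads in NOD replicates 1 and 5, and 2.07 in NZB, against 4.13 in B6 and 2.70 in v6.5. Ptprc, the pan-leukocyte CD45, had 0 and 0.5 normalised reads in NOD and 0 in NZB, against 6.88 in B6 and 5.39 in v6.5. Tyrobp, a myeloid adaptor, had 1 read in B6 and 0 elsewhere. Spi1, the myeloid and B cell factor PU.1, had 33.3 and 16.9 normalised reads in NOD replicates 1 and 5, and 24.9 in NZB, against 24.8 in B6 and 24.2 in v6.5, levels not divided by length. Cd14, a monocyte receptor, had 7.56 and 12.4 in NOD and 3.11 in NZB, against 0 in B6 and 1.34 in v6.5. Fcer1g rested on 1 and 4 reads in NOD replicates 1 and 5, and 2 in NZB, against 3 in B6 and 2 in v6.5. These reads were too few to rank the libraries. Ptprc was highest in B6, with 5 reads, Cd14 was highest in NOD, and the Spi1 libraries overlapped. The summed level of all 14 leukocyte markers in the table was 779 and 547 normalised reads in NOD replicates 1 and 5, and 604 in NZB, against 1247 in B6 and 403 in v6.5. Most of it came from the lysosomal genes Laptm5 and Cd68. Laptm5 had 281 and 311 normalised reads in NOD and 40.4 in NZB, against 857 in B6 and 212 in v6.5. Cd68 had 396 and 143 normalised reads in NOD and 451 in NZB, against 235 in B6 and 82.2 in v6.5. Laptm5 was highest in B6, and Cd68 was highest in NZB and NOD replicate 1. The part of these markers in the Fcgr3 difference was not tested. Of the 6 leukocyte markers that could be tested, 0 were called in NOD against B6 by limma. There 1 had an unadjusted p under 0.05, as did 17.4% of all genes. The 1 that edgeR called lower was Laptm5 (log2 fold change -1.57, adjusted p = 0.0268), where 4.7% of all genes were.

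Fcgr3, Fcgr4 and Fcgr2b lie side by side on chromosome 1, and their direct neighbours had few reads. In mm9 the order by start was Fcrlb, Fcrla, Fcgr2b, Fcgr4, Fcgr3, Mir6546 and 1700009P17Rik. Fcrlb had 4 and 1 reads in NOD and 0 in NZB, against 1 in B6 and 1 in v6.5. Fcrla had at most 2 reads in any library, and Mir6546 had 0 in all 5. 1700009P17Rik had 21 and 34 reads in NOD and 2 in NZB, against 10 in B6 and 8 in v6.5, and was not called in NOD against B6 (log2 fold change 0.72, limma adjusted p = 0.754). It was lowest in NZB, where Fcgr3 was high.

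Because reads were 50 bases long, stretches of 50 bases that occur in more than 1 gene were counted in GENCODE M21 transcripts. Fcgr3 shared 166 of its 1733 stretches (9.58%) with Fcgr2b, Cd55 shared 384 of 4801 (8%) with Cd55b, Cr1l shared 459 of 10577 (4.34%), nearly all with Crry-ps, and Cd59a shared 70 of 1811 (3.87%) with Cd59b. Fcgr2b shared 249 of 5685 (4.38%), 166 of them with Fcgr3. Over the 5 libraries Fcgr2b had 29 reads and Fcgr3 173, and whether some Fcgr2b reads came from Fcgr3 was not tested. Serping1, Fcgr1 and Fcgr4 shared 0. The study's methods speak of uniquely alignable reads but do not say whether only those were counted, so reads from such stretches may have been dropped or assigned, and the levels of the sharing genes are uncertain to that degree. Cd59b itself had 48.4 and 13.4 normalised reads in NOD replicates 1 and 5, and 14.5 in NZB, against 11.01 in B6 and 9.43 in v6.5. It was highest in NOD replicate 1, whereas Cd59a was highest in NOD replicate 5. The longest run shared by Fcgr2b and Fcgr3, 129 bases inside the coding part of both, is shown because a read from within it cannot be told between the 2 genes.
Fcgr2b and Fcgr3 shared run: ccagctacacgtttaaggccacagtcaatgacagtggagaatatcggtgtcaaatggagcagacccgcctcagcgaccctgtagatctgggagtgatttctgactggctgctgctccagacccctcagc

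**Figure D2:**
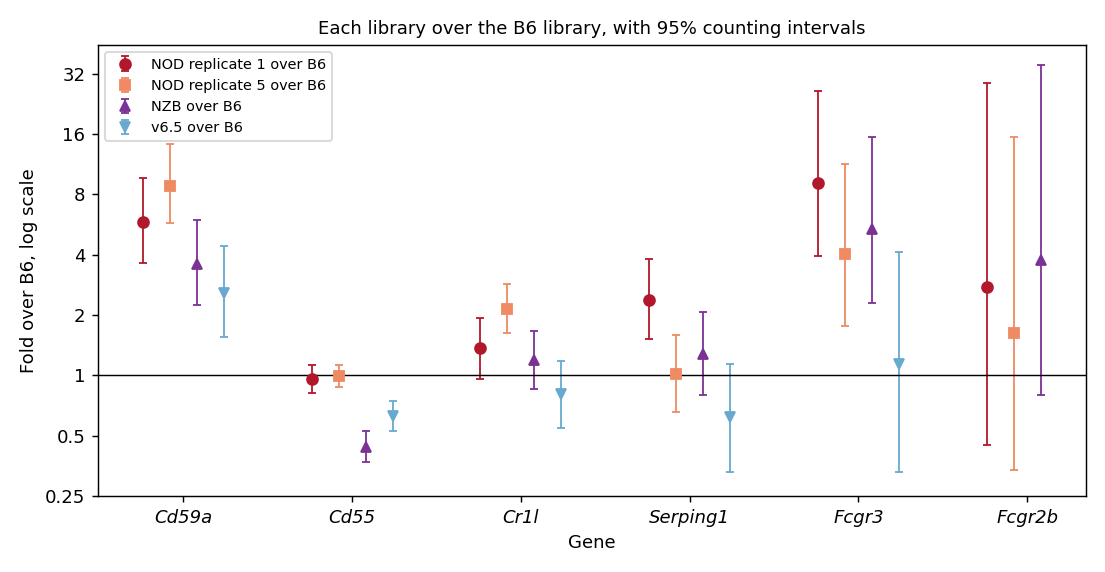
Fold of each NOD, NZB and v6.5 library over the B6 library for the 6 genes with reads in every library, on a log axis. Bars are 95% exact counting intervals, and those of NOD and NZB lie wholly above 1 for Cd59a and Fcgr3, while those of Fcgr2b span 1. Fcgr2b in v6.5 is not drawn, since it and B6 had 3 reads or fewer.

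The first comparison asked which of these genes differ between NOD and B6. On log2(normalised reads + 1), with limma fitted to all 5 libraries, Cd59a had a log2 fold change of 2.80 (SE 0.65, adjusted p = 0.110) and was higher in 2 of 2 NOD libraries. Fcgr3 had a log2 fold change of 2.47 (SE 0.94, adjusted p = 0.244). Cr1l had 0.76 (SE 0.65, adjusted p = 0.582), Serping1 0.62 (SE 0.85, adjusted p = 0.739) and Cd55 -0.04 (SE 0.45, adjusted p = 0.974). With limma, 0 of the 5 members tested were therefore called, and 0.289% of all genes tested were called higher and 0.26% lower. Cd59a and Fcgr3 had an unadjusted p under 0.05, as did 17.4% of all genes tested. Fcgr1, Fcgr2b and Fcgr4 did not pass the filter on low counts. With no filter, limma called Fcgr4 lower in NOD than in B6 (log2 fold change -1.91, adjusted p = 0.0136), a value that rests on 2 reads in B6 and 0 elsewhere. On the recovered reads edgeR's quasi-likelihood test called 1 of the 5, Cd59a, which rose with a log2 fold change of 2.83 (adjusted p = 0.0107), beside 3.41% of all genes called higher. DESeq2 also called Cd59a (2.82, adjusted p = 0.0159), beside 2.72% of all genes, and called neither Fcgr3 (adjusted p = 0.316) nor another member. The limma adjusted p of Cd59a ran between 0.0106 and 0.273 over the other scalings, filters and pseudocounts tried. The Cd55 log2 fold change changed sign without TMM (0.69), where the median of all genes was 0.77.

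Set against v6.5, NOD had positive log2 fold changes for all 5 members tested and 0 were called. The limma values were 2.3 for Fcgr3 (SE 0.94, adjusted p = 0.323), 1.46 for Cd59a (SE 0.65, adjusted p = 0.349), 1.29 for Serping1 (SE 0.85, adjusted p = 0.501), 1.07 for Cr1l (SE 0.65, adjusted p = 0.470) and 0.63 for Cd55 (SE 0.45, adjusted p = 0.536). Over all genes limma called 0% in this comparison, with 2112 at an unadjusted p under 0.05, while edgeR called 832 and DESeq2 467, none of them a member.

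NOD and NZB, both prone to autoimmunity, were close in Fcgr3 and apart in Cd55. The limma log2 fold change of NOD against NZB was 0.17 for Fcgr3 (SE 0.94, adjusted p = 0.999) and 1.14 for Cd55 (SE 0.45, adjusted p = 0.644). Cd55 was higher in 2 of 2 NOD libraries, with counting intervals of 1.8 to 2.61 and 1.92 to 2.63 around folds of 2.17 and 2.24 over NZB. The values were 0.99 for Cd59a (SE 0.65), 0.52 for Cr1l (SE 0.65) and 0.28 for Serping1 (SE 0.85), and 0 of the 5 were called beside 0.0774% of all genes, with 1, Cd55, at an unadjusted p under 0.05, as were 7.14% of all genes, and none called by edgeR or DESeq2. The SE of the Fcgr3 value is too wide to show that NOD and NZB were alike.

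NZB set against B6 gave a log2 fold change of 2.3 for Fcgr3 (SE 1.08, adjusted p = 0.631), 1.81 for Cd59a (SE 0.75, adjusted p = 0.592) and -1.17 for Cd55 (SE 0.52, adjusted p = 0.624). None of the 5 members was called by limma beside 0.00704% of all genes, 1, Cd59a, had an unadjusted p under 0.05, as did 8.16% of all genes, and edgeR and DESeq2 called none. In v6.5 against B6, both of which the study calls diabetes-resistant, the largest member value was 1.34 for Cd59a (SE 0.75, adjusted p = 1), and Fcgr3 had 0.17 (SE 1.08). Limma called 0% of all genes between v6.5 and B6, with 275 at an unadjusted p under 0.05, against 33 called by edgeR and 24 by DESeq2, none of them a member.

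Taking B6 and v6.5 as one group put more libraries on the side set against NOD. The limma adjusted p of Cd59a and Fcgr3 then lay close to the threshold. For Cd59a the limma unadjusted p was 0.0032 against B6 alone and 0.0052 here, so it did not fall. For Fcgr3 it was 0.0325 and 0.0077. Of all genes, 17.4% had an unadjusted p under 0.05 against B6 alone and 30.6% here. In NOD against B6 with v6.5 the limma log2 fold change was 2.13 for Cd59a (SE 0.55, adjusted p = 0.0526) and 2.38 for Fcgr3 (SE 0.66, adjusted p = 0.0623). Cr1l had 0.92 (adjusted p = 0.195), Serping1 0.96 (adjusted p = 0.322) and Cd55 0.29 (adjusted p = 0.582). Limma called 0 of 5 members beside 9.28% of all genes, while DESeq2 called Cd59a (adjusted p = 0.0052) and Fcgr3 (adjusted p = 0.0346), beside 8.65% called higher. Limma also called both with the deposited scaling (adjusted p = 0.0045 for Cd59a and 0.0121 for Fcgr3). With that scaling it called 1269 genes in all, and the median log2 fold change of all genes was 0.44. With equal totals without Rn45s, limma called Cd59a (adjusted p = 0.0433) among 1362 genes in all, beside 1211 with TMM. In 4 of the 5 members, all but Cd55, every NOD library was above B6 and v6.5, where 31.8% of all genes showed that order, and the margins of NOD replicate 5 over B6 for Serping1 and of NOD replicate 1 over B6 for Cr1l were within counting error. Fcgr3 had 6 reads in B6 and 7 in v6.5, under the filter's minimum count of 10. It was thus kept through the libraries where it is high, so the filter favoured its place in this count. Leaving out B6, the library with the most Rn45s, gave Cd59a 1.48 (adjusted p = 0.209) and Fcgr3 2.32 (adjusted p = 0.217).

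With NZB added to NOD, the log2 fold change over B6 with v6.5 was 2.33 for Fcgr3 (SE 0.59, adjusted p = 0.0656) and 1.8 for Cd59a (SE 0.55, adjusted p = 0.0958). Cd55 had -0.08 (adjusted p = 0.913), a value whose sign changed without TMM, without B6 and without NZB. Limma again called 0 of 5 members beside 3.82% of all genes, and had 2 of them beside 26.5% of all genes at an unadjusted p under 0.05. DESeq2 called Fcgr3 (adjusted p = 0.0146) and Cd59a (adjusted p = 0.0259) beside 8.6% called higher. The same 4 members had all 3 NOD and NZB libraries above both others, an order that 23.7% of all genes showed. The filter favoured the place of Fcgr3 in this count too. The fold of NZB over B6 was within counting error for Cr1l (1.19, 95% counting interval 0.857 to 1.66) and Serping1 (1.28, 0.800 to 2.08). These comparisons share libraries, so they do not support one another.

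**Figure D3:**
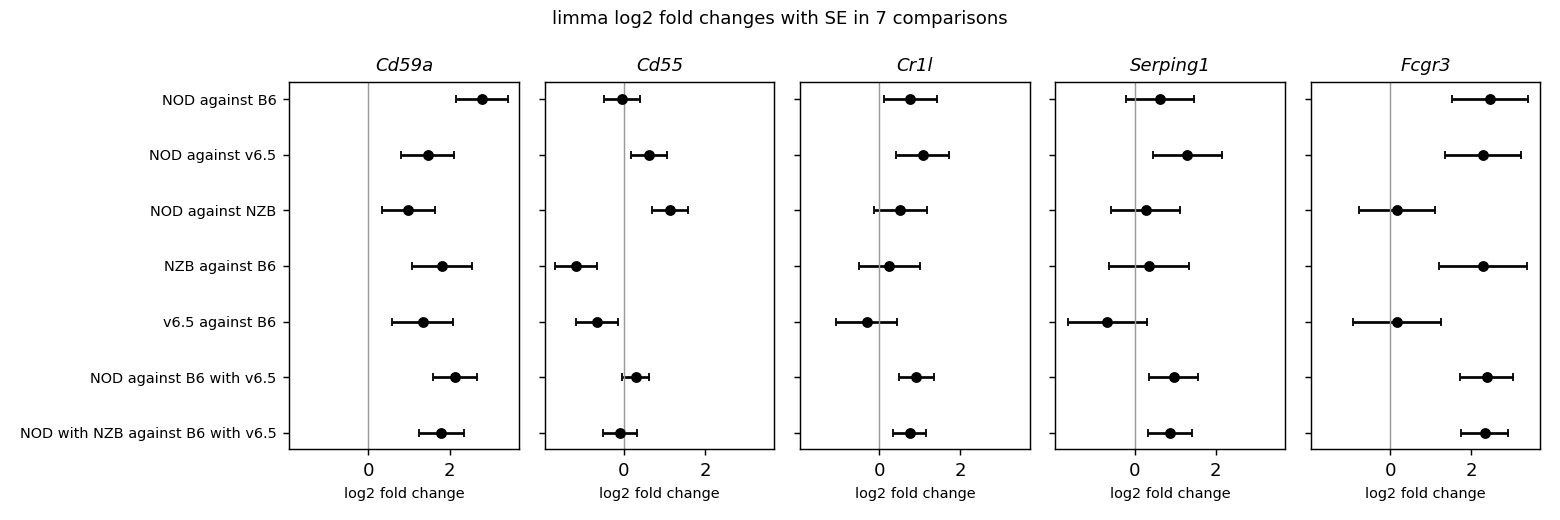
limma log2 fold change (points) with its SE (bars) for the 5 tested members in the 7 comparisons, the first-named strain over the second. Cd59a and Fcgr3 are the farthest to the right in most comparisons with B6, and Cd55 lies on both sides of 0.

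The remaining genes of complement and Fc receptor biology were read from fixed lists, against the median of all genes of 0.05 on the log2 scale in NOD over B6 and the 17.4% of all genes with an unadjusted p under 0.05. Of the 28 complement components found, 8 could be tested, and 0 were called, with 2 at an unadjusted p under 0.05 and a median log2 fold change of 0.59. C2, the protease of the classical C3 convertase, had 171 and 57.3 normalised reads in NOD replicates 1 and 5, and 140 in NZB, against 17.9 in B6 and 20.2 in v6.5 (log2 fold change of NOD over B6 2.41, limma adjusted p = 0.233). All 3 NOD and NZB libraries of C2 stood above B6 and v6.5, with the NOD libraries well apart. Masp2, the protease of the lectin pathway and a target of Serping1, had 103 and 61.2 in NOD and 119 in NZB, against 37.2 in B6 and 8.09 in v6.5 (1.07, adjusted p = 0.517).

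Among 10 complement receptors 3 could be tested, with 0 called and a median of -0.76. C1qbp, a mostly mitochondrial protein that binds C1q, had 1249 and 1387 normalised reads in NOD replicates 1 and 5, and 1109 in NZB, against 2225 in B6 and 1704 in v6.5, and so lay lower in each NOD library without passing (-0.76, limma adjusted p = 0.372). Itgam, a chain of complement receptor 3, had 13.6 and 25.9 normalised reads in NOD, and 21.8 in NZB, against 30.3 in B6 and 8.09 in v6.5.

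Of 15 other complement regulators 9 were tested, and limma called 0, with 3 at an unadjusted p under 0.05 and a median of 0.16. Susd4, an inhibitor of C3 convertase formation, had 163 and 134 normalised reads in NOD replicates 1 and 5, and 103 in NZB, against 132 in B6 and 53.9 in v6.5. Clu, which encodes clusterin, had 162 and 52.3 in NOD and 26.9 in NZB, against 133 in B6 and 116 in v6.5. In both genes the NOD libraries overlapped or adjoined B6. Cpn1, the catalytic chain of the carboxypeptidase that inactivates anaphylatoxins, was picked after its values were seen: it had 228 and 120.0 normalised reads in NOD and 83.9 in NZB, against 26.2 in B6 and 22.9 in v6.5. It rose in NOD against B6 by edgeR (2.69, adjusted p = 0.0341) but not by limma (2.62, adjusted p = 0.163), and in NOD against B6 with v6.5 by limma (2.71, adjusted p = 0.0255).

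Only 2 of 14 other Fc receptor genes could be tested, with 0 called in NOD against B6, 1 at an unadjusted p under 0.05 and a median of 1.12. Fcgrt, the neonatal Fc receptor, had 225 and 99.1 normalised reads in NOD replicates 1 and 5, and 58.0 in NZB, against 136 in B6 and 244 in v6.5, with the groups overlapping. Trim21, a cytosolic antibody receptor, had 186 and 165 in NOD and 66.3 in NZB, against 39.9 in B6 and 22.9 in v6.5. Trim21 rose in NOD against B6 with v6.5 (log2 fold change 2.49, limma adjusted p = 0.0271) and missed the threshold against B6 alone (2.11, adjusted p = 0.192).

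Of 23 signalling genes below the receptors 22 could be tested. In NOD against B6 limma called 0, with 3 at an unadjusted p under 0.05, and the median of 0.04 was near that of all genes. Inpp5d, the SHIP1 phosphatase that carries the inhibitory signal of Fcgr2b, had 3679 and 2766 normalised reads in NOD replicates 1 and 5, and 3649 in NZB, against 1689 in B6 and 1547 in v6.5 (0.92, limma adjusted p = 0.322). Ptpn11, the SHP-2 phosphatase, had 1458 and 1302 in NOD and 1346 in NZB, against 1225 in B6 and 1373 in v6.5 (0.17, adjusted p = 0.852). Inpp5d had no overlap between NOD with NZB and the others, and Ptpn11 overlapped. edgeR called Plcg2, a phospholipase, higher (1.48, adjusted p = 0.0378), where 3.41% of all genes were. It called Cbl (-1.93, adjusted p = 0.00123) and Sos1 (-1.66, adjusted p = 0.0045) lower, where 4.7% were. All 3 genes were named after their values were seen. Limma called the same 3 of the 22 in NOD against B6 with v6.5, where it called 9.28% of all genes, at 1.75 for Plcg2 (adjusted p = 0.0236), -1.70 for Cbl (adjusted p = 0.0214) and -1.35 for Sos1 (adjusted p = 0.0350).

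Cd59a and Cd55 reach the membrane through a GPI anchor, and 27 of 28 genes for making or attaching it were tested. In NOD against B6 limma called 1 higher and 0 lower, beside 0.289% and 0.26% of all genes, and the median was 0.18. The gene called was Pigp, a subunit of the enzyme of the first step, with 502 and 780 normalised reads in NOD replicates 1 and 5, and 369.9 in NZB, against 48.2 in B6 and 68.7 in v6.5. NOD and NZB libraries were far above B6 and v6.5, and Pigp rose with a log2 fold change of 3.67 over B6 (limma adjusted p = 0.0473, edgeR adjusted p = 1.84e-06). In NOD against B6 with v6.5, Pigp (3.42, limma adjusted p = 0.0082) was joined by Pigo, an ethanolamine phosphate transferase (1.34, adjusted p = 0.0401), beside 9.28% of all genes called.

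Of the 7 Serping1 target proteases found, 3 were tested, with 0 called in NOD against B6, 1 at an unadjusted p under 0.05 and a median of -0.70. Plat, tissue plasminogen activator, had 28.7 and 4.98 normalised reads in NOD replicates 1 and 5, and 36.3 in NZB, against 20.6 in B6 and 6.73 in v6.5. The NOD libraries of Plat spanned nearly the whole range of the 5 libraries.

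**Figure D4:**
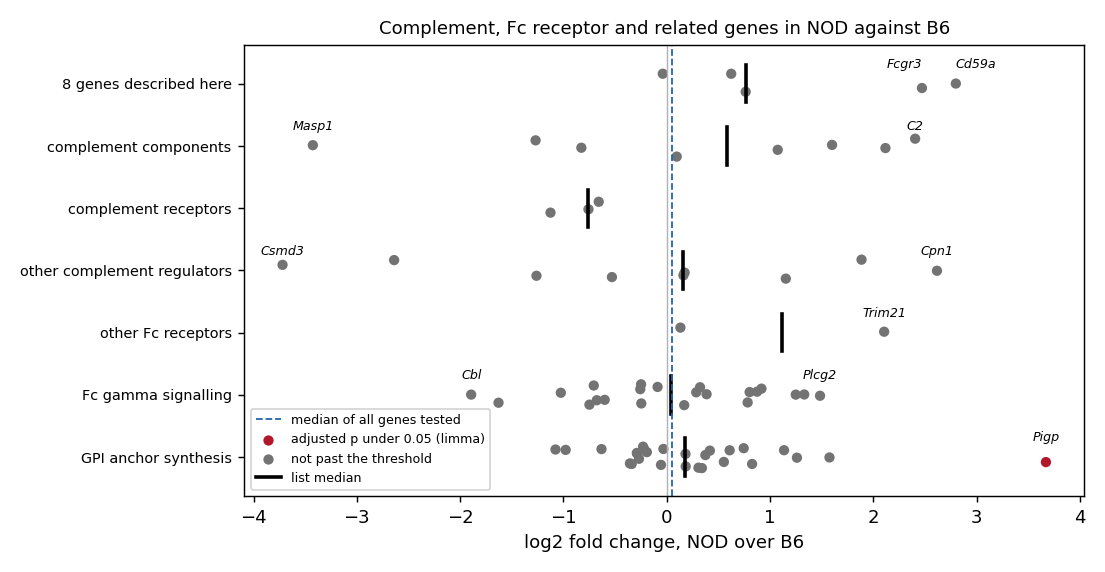
log2 fold change of NOD over B6 for each tested gene of the 8 described here and of 6 of the related lists, with the list median (black bar) and the median of all genes (dashed). Pigp is the 1 gene past the limma threshold, and the medians lie on both sides of that of all genes.

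The genes nearest to each member in their pattern were found by the root mean square difference of mean-centred log2 levels over the 5 libraries, among 14186 genes. They were Fetub (0.126), Zfp560 (0.164) and Unc5cl (0.204) for Cd59a, and Fign (0.0747), Mta3 (0.0811) and Ldoc1l (0.105) for Cd55. For Cr1l they were Mettl23 (0.0281), Plekhf2 (0.0484) and Napa (0.0484), for Serping1 Azin2 (0.0446), Cldn19 (0.063) and Col4a1 (0.0756), and for Fcgr3 Polg2 (0.0945), Irs2 (0.112) and Mir1291 (0.133). Col4a1 is also among the primitive endoderm markers above. No member was among the 3 nearest to another. Cd59a and Fcgr3 were 0.776 apart, and 1800 was the rank of Fcgr3 in the list for Cd59a.

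Promoter windows, 250 bases before to 50 after a start, were in the RefSeq table (GRCm38.p6) for 7 of the 8 genes, Serping1 being the other, in 8 windows in all. Those of Cd59a, Fcgr3 and Cd55 are shown, as the 2 genes that varied most and the most abundant one, with each CpG in capitals. Cd59a lies at chr2:104095551-104095850 on the plus strand, Fcgr3 at chr1:171059354-171059653 and Cd55 at chr1:130462695-130462994, both on the minus strand.
Cd59a promoter: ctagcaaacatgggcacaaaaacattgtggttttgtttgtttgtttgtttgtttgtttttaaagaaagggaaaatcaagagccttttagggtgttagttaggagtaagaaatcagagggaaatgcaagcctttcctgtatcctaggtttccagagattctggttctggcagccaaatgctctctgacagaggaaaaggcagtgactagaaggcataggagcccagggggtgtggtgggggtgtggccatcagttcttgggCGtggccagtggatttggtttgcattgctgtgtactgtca
Fcgr3 promoter: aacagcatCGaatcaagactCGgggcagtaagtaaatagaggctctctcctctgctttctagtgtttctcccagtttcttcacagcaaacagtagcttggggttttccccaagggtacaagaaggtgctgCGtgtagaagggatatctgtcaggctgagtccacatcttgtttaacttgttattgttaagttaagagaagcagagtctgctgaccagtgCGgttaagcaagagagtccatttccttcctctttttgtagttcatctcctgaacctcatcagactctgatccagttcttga
Cd55 promoter: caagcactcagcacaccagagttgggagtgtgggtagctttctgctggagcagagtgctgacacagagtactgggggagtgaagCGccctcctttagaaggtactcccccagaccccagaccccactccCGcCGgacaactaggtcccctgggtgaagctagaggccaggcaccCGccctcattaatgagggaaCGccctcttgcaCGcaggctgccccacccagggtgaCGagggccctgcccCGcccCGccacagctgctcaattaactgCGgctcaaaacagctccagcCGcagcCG

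Cd55 had 12 CpGs, and 62.1% of the 32851 windows of all genes had as many or fewer. Cd59a and Fcgr1 had 1 each, where 14.1% of windows had as many or fewer, Fcgr4 had 2, the 2 windows of Fcgr3 had 4 and 3, and Cr1l and Fcgr2b had 6 each, against a median of 7 over all windows. The most abundant member thus had the most CpGs, although Cd59a, second in level, had among the fewest. On both strands, the interferon response element, GAAA followed by any 2 bases and GAAA, was in the windows of Cd59a and Fcgr4 and in 3.44% of all windows, and the STAT letters TTCNNNGAA in that of Fcgr1 and in 8.3% of all. The PU.1 letters GAGGAA were in the windows of Cd59a, Fcgr1, Fcgr3 and Fcgr4 and in 28.3% of all, and the Sp1 letters GGGCGG occurred 2 times in the Cd55 window, in no other member and in 35.7% of all. The letters TATAAA were in none of the members' windows and in 13.6% of all. The NF-kB letters, GGG, any 5 bases and CC, were in 50.8% of all windows and in those of the members with a window, all but Fcgr1. These are matches of letters, and no binding was measured.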

How the data were processed

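The authors sequenced poly-A selected, strand-kept RNA as single-end 50-base reads, aligned them to mm9 with STAR (2.2.0c per the labels) and counted them over genes with HOMER. In the deposited table each signal value is a gene's read number after the authors brought libraries to one common total, without log or length scaling. Below 3000, 100% of values lay within 0.05 of whole reads, so reads were recovered and depth is their sum. Columns that hold the authors' own comparisons (log2 fold changes, p-values and FDR) were not used. The labels gave each library's strain.

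Values were divided by TMM factors over the 5 libraries (edgeR 4.0.16) and log2(value + 1) was tested with limma 3.58.1 (trend, R 4.3.3) after filterByExpr on the reads (14206 of 24016 genes kept, 5 of the 8 members). P-values were adjusted by Benjamini-Hochberg across every gene tested, and 0.05 was the threshold. Comparisons between single strains used 1 mean per strain and have 1 residual degree of freedom, so the NOD pair alone sets the spread assumed for every single library. The grouped comparisons, fitted on their own libraries, have 2 and 3. On recovered reads edgeR's quasi-likelihood test called 1153 genes in NOD against B6, and DESeq2 1.42.0 called 705. The limma test of NOD against B6 was tried on simulated counts with known changes. The simulation gave all genes a common spread and no other difference between strains. It therefore does not show how the test fares on these libraries. Counting intervals are 95% exact binomial.

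The members, lists and tests were chosen with earlier results of these data known. Beside the members, the text names up to 3 called genes per list or, with none called, the 2 with the highest mean normalised reads, 2 neighbours on each side of the receptor genes, and the 3 genes nearest in pattern. Alternatives were other scalings, pseudocounts, filters, tests and sets of libraries.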

Additional observations from a re-analysis of the deposited data

How the results depend on the processing

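Fcgr1, Fcgr2b and Fcgr4 are described only, since without the filter limma called Fcgr4 against B6 in NOD (adjusted p = 0.0136), NZB (0.0121) and v6.5 (0.0114) from 2 reads in B6, and no comparison of single strains has more than 1 pair of replicates. Over 380 values of the 5 tested members under the alternatives, 356 kept their direction and, where tested, their side of the threshold, 13 came past the threshold and 11 changed sign, 3 of these with no test. The 13 were of Cd59a (deposited scaling, DESeq2, edgeR or equal totals without Rn45s) and Fcgr3 (deposited scaling or DESeq2) against B6 or B6 with v6.5. Cd59a in NOD against B6 had log2 fold changes of 3.15 without NOD replicate 1 and 2.49 without NOD replicate 5, and Fcgr3 1.94 and 3.05, with no test. Without NOD replicate 1 the sign turned with no test for Cd55 in NOD against B6 (0.038) and for Serping1 (-0.30) and Fcgr3 (-0.38) in NOD against NZB. The other sign changes were of uncalled values. For Cd55 they were 0.69 (deposited scaling without TMM) and 0.047 (equal totals without Rn45s) in NOD against B6, 0.0086 (deposited scaling) in v6.5 against B6, -0.038 (without v6.5, the lowest on leaving out a library, with 0.64 without B6 the highest) in NOD against B6 with v6.5, and 0.36 (deposited scaling), 0.28 (without B6) and 0.29 (without NZB, the highest on leaving out a library, with -0.42 without v6.5 the lowest) in NOD plus NZB set against B6 plus v6.5. For Cr1l the value was 0.36 (deposited scaling) in v6.5 against B6. The counts of genes called over the whole table moved more. In NOD against B6, with 78 called, the deposited scaling gave 1200, DESeq2 size factors 469, edgeR 1153, DESeq2 705, no filter on low counts 1185, NOD and B6 alone 292 and equal totals without Rn45s, an alternative chosen after seeing the data, 406. In the same order but for NOD and B6 alone, NOD against v6.5, with 0 called, gave 259, 252, 832, 467, 1189 and 207, NOD against NZB, with 11, gave 103, 91, 369, 215, 1281 and 85, NZB against B6, with 1, gave 137, 29, 293, 157, 1303 and 17 (and 0 with a pseudocount of 5), and v6.5 against B6, with 0, gave 5, 2, 33, 24, 1255 and 1. In NOD against B6 with v6.5, with 1211 called, DESeq2 gave 2282, no filter 0 (5076 at an unadjusted p under 0.05), and leaving out a library 0 (without NOD replicate 1) to 1763 (without NOD replicate 5), with 506 without B6 and 292 without v6.5. In NOD plus NZB set against B6 plus v6.5, with 510 called, the deposited scaling gave 1653, DESeq2 2167, no filter 14, and leaving out a library 1 (without v6.5) to 1211 (without NZB), with 138 without NOD replicate 1, 5 without NOD replicate 5 and 5 without B6. The cause of these shifts was not tested. The fits with 1 mean per strain have no residual degrees of freedom without a NOD replicate and gave no count. No paired analysis was possible because only NOD has more than 1 replicate.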
